A study of Mus musculus with 10 samples.

Results

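The signal recognition particle (SRP) was described in embryonic mouse midbrain by 8 genes of 30935 in the deposited gene count table. They were the 7SL RNA genes Rn7s1 and Rn7s2 and the protein genes Srp9, Srp14, Srp19, Srp54a, Srp68 and Srp72, found by symbol and Entrez gene ID. The set was chosen by the counts of the 7SL rows, both lower in the deletion group, so that difference is a description and carries no test here. All 8 genes passed the filter on low counts. RNA-seq was done on midbrains of embryos at embryonic day 14.5. The wild-type group (Rbfox1 +/+) held 5 libraries, numbered 1, 2, 4, 5 and 6. The deletion group was homozygous for loss of HAR.321, a human accelerated region in the Rbfox1 locus (Rbfox1 ΔHAR.321/ΔHAR.321, named 2xHAR.321 Knockout in the labels), with 5 libraries numbered 2, 3, 4, 5 and 6. The samples are described as independent, while the sources used here do not give strain, sex, litter or the number of founder lines.

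SRP is a ribonucleoprotein that meets signal peptides as they leave the ribosome and brings the ribosome to the endoplasmic reticulum (ER). The 7SL RNA is its scaffold: Srp9 and Srp14 sit on the Alu domain at the ends of the RNA and slow elongation, while Srp19, Srp54, Srp68 and Srp72 sit on the S domain, where Srp54 binds the signal peptide. The SRP receptor then hands the ribosome to the Sec61 channel, the route by which neuronal receptors, ion channels, adhesion proteins and secreted guidance cues enter the membrane system. 7SL is made by RNA polymerase III and carries no poly(A) tail, so its share of a library depends on how RNA was selected, which is not given in the sources used here.

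How alike the 7SL genes are bears on how the 2 rows can be read. In the GENCODE M21 transcripts (GRCm38) Rn7s1 and Rn7s2 are single-exon noncoding genes of 300 bases on opposite strands of chromosome 12, and they differ at 0 bases. Coordinates are left out, since the counts were made on mm39 and no mm39 annotation was used here.

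No read from inside these genes can be assigned to 1 of the 2 genes. The deposited counts bear the same mark. Rn7s1 and Rn7s2 held 275 and 275 counts in wild-type 1, 236 and 236 in wild-type 2, 162 and 161 in wild-type 4, 234 and 235 in wild-type 5, and 231 and 235 in wild-type 6. In the deletion group they held 73 and 72 counts in deletion 2, 125 and 125 in deletion 3, 95 and 98 in deletion 4, 80 and 80 in deletion 5, and 192 and 189 in deletion 6. The rows were equal in 4 of 10 libraries and at most 4 counts apart in the others, whereas 2 independent rows of this size would differ with an SD of 12 to 23.5 counts. They thus differed by less than the sampling noise and were counted as 1 measurement of 7SL, not as a pair of genes that each fell. Among 12697 rows with a mean of at least 50 counts, 76 pairs matched within 5% in every library, and the 7SL pair was equal in the most libraries. How the authors treated reads that map to several places is not given in the sources used here.

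**Figure D1:**
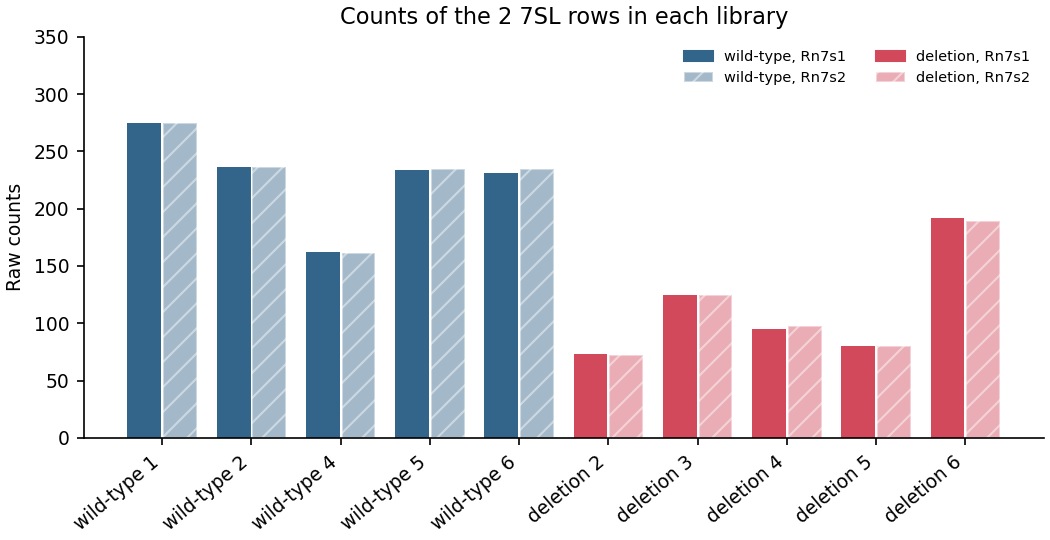
Raw counts (y axis, from 0) of Rn7s1 (solid) and Rn7s2 (hatched) in each of the 10 libraries (x axis), wild-type in blue and deletion in red. The paired bars are at most 4 counts apart in every library, and wild-type 4 (162 Rn7s1 counts) stands below deletion 6 (192).

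Other annotated genes carry stretches of 7SL as well. Of the 251 windows of 50 bases in Rn7s1, 251 occurred in Rn7s2 and 124 in the copy Rn7s6. Transcripts of genes other than Rn7s1 and Rn7s2, with Rn7s6 among them, held 193 on either strand. At 100 bases, 79 of 201 windows occurred in these other genes, and 74 of 201 in Rn7s6. Counting Rn7s6, 10 genes shared a window of 50 bases against 2 at 100 bases. The 7SL count is therefore a count of reads of the family as the authors' counting placed them.

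7SL stood at 14.3, 14.5, 8.95, 12.2 and 12.1 CPM (counts scaled to library size with TMM factors) in wild-type 1, 2, 4, 5 and 6 by the Rn7s1 row. In deletion 2, 3, 4, 5 and 6 the Rn7s1 row stood at 4.5, 6.98, 4.71, 4.26 and 10.1 CPM. Each of the 5 deletion values was lower than the mean of the wild-type group, but the groups overlapped, because deletion 6 exceeded wild-type 4. Mean Rn7s1 levels were 12.4 ± 2.24 and 6.11 ± 2.48 CPM (SD, n = 5 each). The deletion level was 2.03-fold lower by the fit, or -1.02 on the log2 scale (SE 0.21). The row Rn7s2 gave 12.5 ± 2.26 and 6.09 ± 2.41 CPM and a log2 fold change of -1.03 (SE 0.21), which repeats the same reads. In the whole table, 20 of 15288 genes tested (0.131%), both 7SL rows included, had a log2 fold change at or below that of Rn7s1. Since 7SL was chosen for this difference, its place among all genes is a description and no test. Leaving out 1 library at a time gave values from -1.28 without deletion 6 to -0.92 without deletion 5. Fewer cells that hold much 7SL, less 7SL per cell and uneven selection of RNA between libraries cannot be told apart in bulk tissue.

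The spread of 7SL within the groups was uneven. Its coefficient of variation was 18.1% in the wild-type group, where 70.8% of 1006 genes of like count varied less. In the deletion group it was 40.6%, more than for 98.8% of those genes, whose median was 16.2%. Counting error alone would give 9.41% in that group. The genes of like count were matched on the mean over all 10 libraries, 170.3 for Rn7s1. In the deletion group alone Rn7s1 held 73 to 192 counts. The exact 95% Poisson interval ran from 57.2 to 91.8 counts for the 73 counts of deletion 2 and from 166 to 221 counts for the 192 counts of deletion 6, and it covers counting error only.

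**Figure D2:**
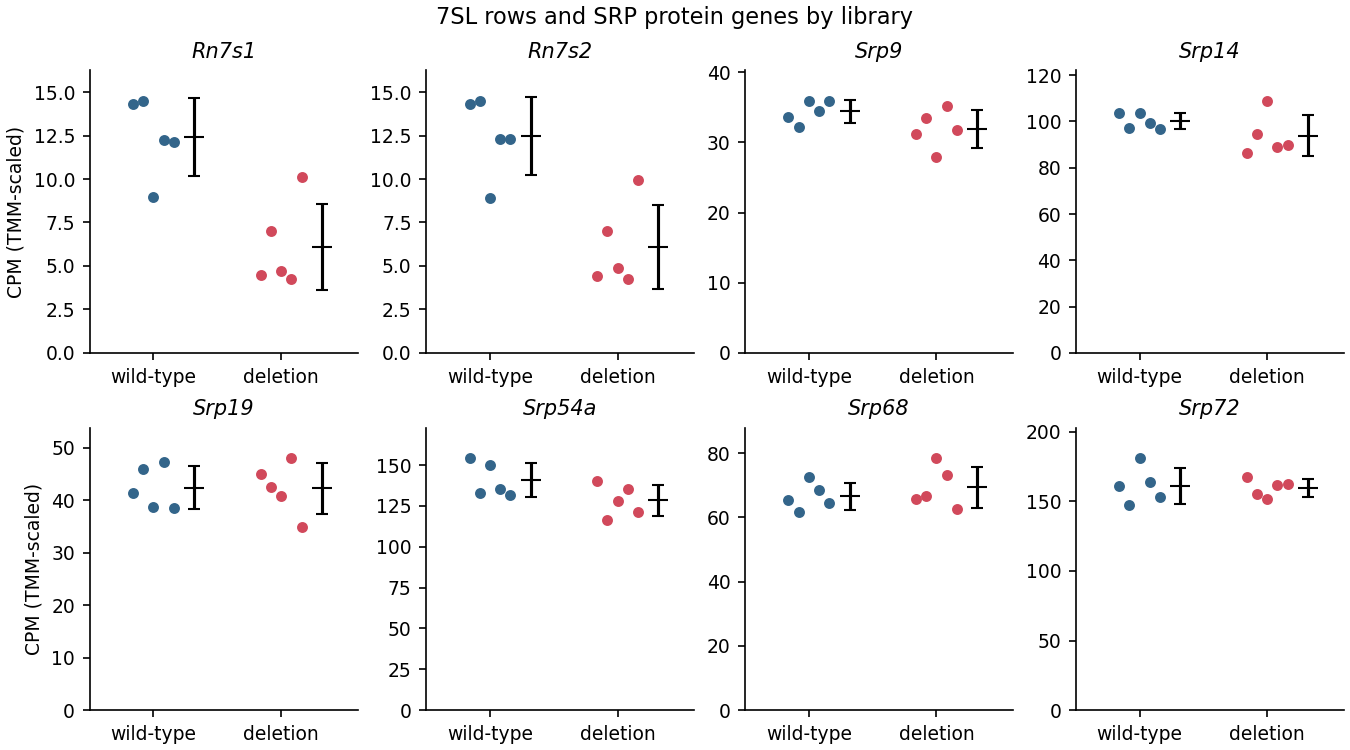
TMM-scaled CPM (y axis, from 0) of each of the 8 genes in the 5 wild-type (blue) and 5 deletion (red) libraries, in order of library number, with the group mean and SD in black. The 7SL rows separate by level apart from wild-type 4 and deletion 6, while the protein genes overlap between the groups.

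The 6 protein genes were tested with all other genes, although they had been listed with earlier results of these data known. None passed the quasi-likelihood test of edgeR at a Benjamini-Hochberg adjusted p under 0.05 over all genes, where 0.0589% of all genes tested were called, and none had an unadjusted p under 0.05, against 10.5% of all genes. DESeq2 and limma-voom called none of the 6 either. The groups overlapped for each of the 6, whereas 2.49% of all genes had groups that did not overlap. In the fit, 5 of the 6 had a log2 fold change below 0, where 50.7% of all genes did, and 3 of the 6 did with each library's trend on transcript length removed.

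The Alu domain proteins came first. Srp9, the smaller partner of the heterodimer, stood at 33.7, 32.2, 35.9, 34.4 and 36.0 CPM in wild-type 1, 2, 4, 5 and 6. In deletion 2, 3, 4, 5 and 6 Srp9 stood at 31.2, 33.4, 27.9, 35.2 and 31.7 CPM. Deletion 4 was the lowest of the 10 libraries and deletion 5 lay among the wild-type values, with a log2 fold change of -0.11 (95% interval -0.29 to 0.06, edgeR adjusted p = 0.694), or -0.01 with the length trend removed. Srp14, its partner, stood at 104, 97.4, 104, 99.5 and 96.7 CPM in the wild-type libraries in the same order. In the deletion libraries Srp14 stood at 86.6, 94.8, 109, 89.1 and 89.9 CPM. Deletion 4 was above all wild-type libraries and the other 4 deletion values were below them all. The log2 fold change of Srp14 was -0.09 (95% interval -0.23 to 0.05, edgeR adjusted p = 0.684), and it turned to 0.05 with the trend on transcript length removed.

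Of the S domain proteins, Srp19 binds the RNA early in assembly and lets Srp54 join. It stood at 41.4, 46.0, 38.8, 47.4 and 38.6 CPM in wild-type 1, 2, 4, 5 and 6 and at 45, 42.6, 40.8, 48.1 and 35.0 CPM in deletion 2, 3, 4, 5 and 6. The values were interleaved, and the log2 fold change was -0.01 (95% interval -0.19 to 0.18, edgeR adjusted p = 0.994), or 0.14 with the length trend removed. Deletion 6, which held the most 7SL of its group, held the least Srp19.

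Srp54a encodes the GTPase that binds signal peptides. It stood at 154, 133, 150, 135 and 131 CPM in wild-type 1, 2, 4, 5 and 6 and at 140, 116, 128, 136 and 122 CPM in deletion 2, 3, 4, 5 and 6. All 5 deletion libraries were below the wild-type mean but 2 of them lay inside the wild-type range, and the log2 fold change was -0.13 (95% interval -0.28 to 0.01, edgeR adjusted p = 0.510). This row cannot be read alone, since the mouse has the near-identical neighbours Srp54b and Srp54c on the same chromosome. Of the windows of 100 bases in the longest coding transcript, 72.1% in Srp54a, 98.4% in Srp54b and 89.5% in Srp54c also occur in another copy. Srp54b had a log2 fold change of -0.01 (SE 0.07, edgeR adjusted p = 0.985) and Srp54c one of 0.06 (SE 0.08, edgeR adjusted p = 0.838). Over the 3 copies summed, summed Srp54 was 405 ± 24.7 CPM for wild-type and 398 ± 31.2 CPM for deletion libraries (SD, n = 5 each). The share of Srp54a in that sum was 34.8 ± 1.92% and 32.3 ± 1.84%.

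Srp68 and Srp72 form the heterodimer that holds the centre of the S domain. Srp68 stood at 65.5, 61.7, 72.7, 68.4 and 64.4 CPM in the wild-type libraries and at 65.7, 66.7, 78.6, 73.3 and 62.7 CPM in the deletion libraries. It was the only one of the 6 with a higher mean in the deletion group (log2 fold change 0.06, 95% interval -0.09 to 0.21, edgeR adjusted p = 0.841). Srp72 stood at 161, 148, 181, 164 and 153 CPM in the wild-type and at 168, 155, 152, 162 and 162 CPM in the deletion libraries. The deletion values of Srp72 all fell inside the wild-type range, with a log2 fold change of -0.01 (95% interval -0.15 to 0.12, edgeR adjusted p = 0.968). The lower bounds of the 6 intervals ran from -0.29 for Srp9 to -0.09 for Srp68. These genes were not tested against 7SL, whose difference was used to choose the set.

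**Figure D3:**
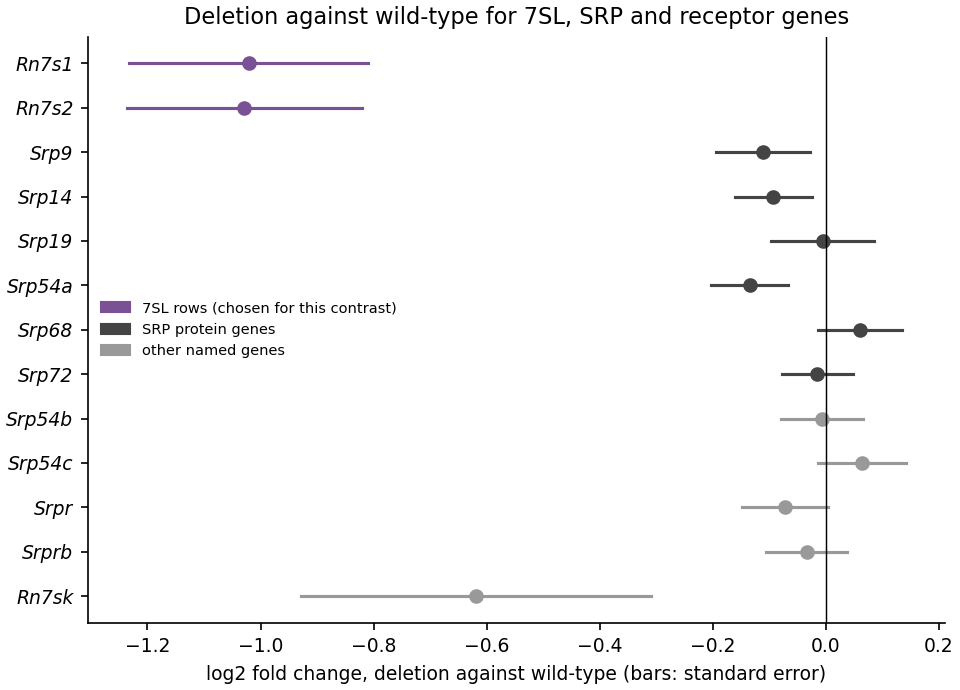
Log2 fold change of deletion against wild-type (x axis) with its standard error for the 2 7SL rows (purple), the 6 SRP protein genes (dark) and 5 other named genes (grey). The 7SL rows lie at -1.02 and -1.03 and are plotted as a description, while the SRP protein genes lie between -0.13 and 0.06.

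Per kilobase of transcript, Srp14 had the most reads of the 8 in the wild-type group at 125.5 CPM per kilobase. Srp19 (48.4), Srp72 (44.5) and 7SL (41.4 by Rn7s1) followed, and Srp54a (31.3), Srp68 (26.3) and Srp9 (25.2) were lower, all in CPM per kilobase. The transcripts of the Alu heterodimer thus lay at the top and the bottom of this order. By CPM, Rn7s1 ranked 9817th among the 15288 genes tested in the wild-type group, against 1390th for Srp72. For 7SL both orders rank shares of the reads and not levels in the cell. It carries no poly(A) tail, and how RNA was selected is not given.

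Levels of the SRP protein genes were set beside 7SL library by library. Over the 10 libraries, Pearson's r between log2 CPM of a protein gene and of 7SL ran from -0.62 for Srp68 (Spearman's rho -0.66) to 0.37 for Srp9 (rho 0.19). For deviations from the group means all 6 values were below 0, from -0.72 for Srp68 to -0.14 for Srp9. These are descriptions over 10 libraries that share their scaling. The 5 genes most like 7SL, among 10308 with a mean of at least 10 CPM, were Lars2 (r = 0.94, rho 0.89), Ccdc85b (r = 0.94, rho 0.85), Bex1 (r = 0.93, rho 0.87), Gm6793 (r = 0.91, rho 0.90) and Hnrnpab (r = 0.89, rho 0.81). Lars2 encodes the mitochondrial leucyl-tRNA synthetase and Hnrnpab an RNA-binding protein of the hnRNP family. Within the groups their r with 7SL was 0.82 for Lars2, 0.79 for Ccdc85b, 0.80 for Bex1, 0.69 for Gm6793 and 0.59 for Hnrnpab. Since the search used all 10 libraries, a lower level in the deletion group and a high r within the groups both favoured a gene. The log2 fold changes of the 5 genes ran from -0.46 for Lars2 to -0.22 for Hnrnpab.

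Other small noncoding RNAs were scarce. Of 27 such rows in the table, 14 were at 0 in every library, among them Rmrp and Rpph1, the RNAs of the RNase MRP and RNase P enzymes. A count of 0 allows up to 3 counts, or 0.148 CPM in the deepest and 0.185 CPM in the shallowest library. Only Rn7sk and Bc1 passed the filter on low counts. Rn7sk, the polymerase III RNA that restrains the elongation factor P-TEFb, held 64, 53, 48, 40 and 42 counts in wild-type 1, 2, 4, 5 and 6 and 20, 60, 40, 20 and 22 in deletion 2, 3, 4, 5 and 6. By CPM deletion 3 (3.35) was the highest of the 10 libraries and the other 4 deletion values, 1.07 to 1.98, were below the lowest wild-type value of 2.09, with a log2 fold change of -0.62 (95% interval -1.26 to 0.02, edgeR adjusted p = 0.502). It was -0.99 without deletion 3 and -0.39 with the length trend removed. Bc1, a neuronal polymerase III RNA of dendrites, had a log2 fold change of -0.08 (SE 0.31, edgeR adjusted p = 0.968), which turned to 0.23 with the length trend removed. The replication-dependent histone genes, whose mRNAs also lack a poly(A) tail, summed to 72.4 to 87.9 CPM per wild-type library and 61.6 to 79.6 CPM per deletion library. Of 20 tested, 16 were lower and 4 higher with a median log2 fold change of -0.13, and none passed or had an unadjusted p under 0.05 (10.5% of all genes tested). With the length trend removed 11 were lower and the median was -0.02. The 3 with the smallest p were H2ac22 (-0.79, SE 0.52), H2ac19 (-0.19, SE 0.13, and 0.00 with the length trend removed) and H2bc21 (0.17, SE 0.12).

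The partners of SRP at the ER membrane were described from lists. The receptor genes had log2 fold changes of -0.07 for Srpr (SE 0.08, edgeR adjusted p = 0.811), which encodes the GTPase subunit that meets Srp54, and -0.03 for Srprb (SE 0.07, edgeR adjusted p = 0.923), which anchors it in the membrane. Of 13 genes of the Sec61 channel and its partners, 8 were lower and 5 higher, with a median of -0.06 beside -0.00 over all genes tested. None of the 13 passed, and 4 had an unadjusted p under 0.05, where 10.5% of all genes did. Sec61g, a small subunit of the channel, had the smallest p. It stood at 43.1, 47.8, 39.7, 41.9 and 43.6 CPM in the wild-type and 38.1, 38.2, 39.7, 32.5 and 25.0 CPM in the deletion libraries. The groups of Sec61g touched at 39.7 CPM without overlapping, with a log2 fold change of -0.32 (SE 0.11, edgeR adjusted p = 0.229). It was the only 1 of the 13 without overlap, beside 2.49% of all genes tested. Ssr2, of the translocon-associated complex, had one of -0.17 (SE 0.07) and Sec61b one of -0.22 (SE 0.10). With the length trend removed these were -0.26 for Sec61g, -0.06 for Ssr2 and -0.04 for Sec61b, while 9 of the 13 genes were lower and the median was -0.05.

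All 5 signal peptidase genes, which cut the signal peptide off, had values below 0 (median -0.08, 0 passing, 0 with an unadjusted p under 0.05), but with the length trend removed 3 of the 5 were above 0 and the median was 0.04. Those with the smallest p were Spcs2 (-0.12, SE 0.06), Spcs1 (-0.08, SE 0.08) and Sec11c (-0.08, SE 0.09), of which Spcs1 turned to 0.04 and Sec11c to 0.06. Of 12 oligosaccharyltransferase genes, which add N-glycans, 8 were lower and 4 higher (median -0.09), led by Tmem258 (-0.28, SE 0.11), Ost4 (-0.22, SE 0.11) and Ostc (-0.13, SE 0.08). With the length trend removed they were -0.11, -0.10 and -0.01 in that order and the median was -0.03. Of 18 genes of other targeting routes, 12 were lower and 6 higher (median -0.05), which turned to 6 lower and 12 higher (median 0.02) with the length trend removed. There the smallest p belonged to Emc1 (0.17, SE 0.08), of the ER membrane complex, Btf3 (-0.14, SE 0.07) and Bag6 (0.12, SE 0.07). Emc1 was the only 1 of the 18 whose groups did not overlap, beside 2.49% of all genes tested. Without the length trend Emc1 was at 0.11 and Btf3 at -0.02. None of these genes passed edgeR's test, and 1 of the 12 and 1 of the 18 had an unadjusted p under 0.05, a smaller share than the 10.5% of all genes.

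The polymerase III machinery that transcribes 7SL held 31 tested genes, 17 lower and 14 higher, with a median log2 fold change of -0.02. None passed in edgeR and 2 had an unadjusted p under 0.05, a smaller share than the 10.5% of all genes. They were Gtf3c1, the largest subunit of TFIIIC (119 ± 11.6 and 141 ± 7.51 CPM, log2 fold change 0.24, SE 0.07, edgeR adjusted p = 0.161), and Maf1, the repressor of polymerase III (114 ± 6.62 and 99.1 ± 14.2 CPM, -0.20, SE 0.08, edgeR adjusted p = 0.354). DESeq2 called Gtf3c1 (adjusted p = 0.0439), 1 of the 31, where it called 268 of all 15288 genes tested. With the length trend removed 17 of the 31 were lower and the median was -0.03. Ssb, the La protein that binds new polymerase III transcripts, had a log2 fold change of -0.18 (SE 0.09). The 18 ER chaperone and stress genes had a median of -0.05, with 13 lower and 5 higher, 0 passing and 1 with an unadjusted p under 0.05, beside 10.5% of all genes. With the length trend removed 10 were lower and the median was -0.03. Pdia6, a disulfide isomerase (-0.15, SE 0.07), Ern1, a sensor of the unfolded protein response (0.22, SE 0.11), and Atf4, a stress transcription factor (-0.11, SE 0.07, and -0.04 without the length trend), had the smallest p.

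**Figure D4:**
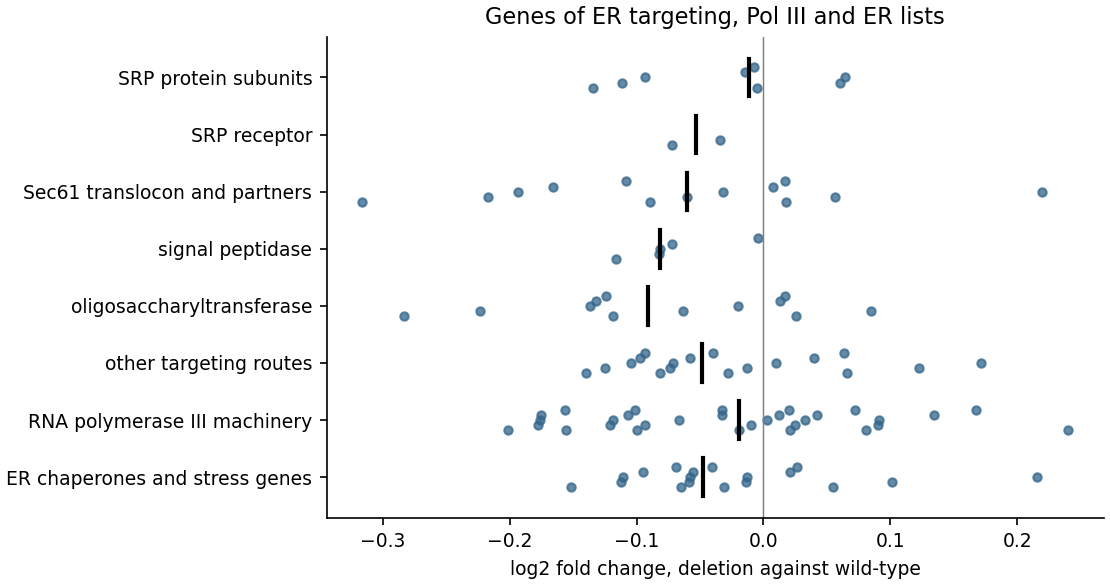
Log2 fold change of deletion against wild-type (x axis) for each tested gene (points) of 8 gene lists (y axis), with the list's median as a black bar. The medians lie between -0.09 for oligosaccharyltransferase and -0.01 for the SRP protein subunits, and the lowest gene is Sec61g at -0.32. With the length trend removed, the medians of the SRP protein subunits (0.02), signal peptidase (0.04) and other targeting routes (0.02) were above 0.

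Properties of the libraries are given here, whether or not they moved with the groups. Totals ran from 16246892 to 20255728 counts. The 15 midbrain markers were all tested and summed to 1017 to 1149 CPM per wild-type and 984 to 1148 CPM per deletion library. The 5 forebrain markers summed to 83.1 to 120 CPM and 88.6 to 115 CPM in the same order, mostly from Emx2 and Six3. The 5 hindbrain markers stayed at or below 0.894 CPM in sum. Red blood cell markers summed to 1604 to 2430 CPM and 2113 to 2846 CPM in the same order, and their part in the 7SL difference was not tested. The slope of log2 CPM on log2 transcript length ran from -0.0589 to -0.0109 per doubling in the wild-type group. It was 0.0414, 0.0312, -0.0483, 0.0467 and 0.0978 in deletion 2, 3, 4, 5 and 6. With each library's length trend removed the log2 fold change of 7SL, 300 bases long, was -0.76 (SE 0.22) by Rn7s1; the part of transcript length in the rest was not tested. Rn7s1 stood at 4.5, 6.98, 4.71, 4.26 and 10.1 CPM in deletion 2, 3, 4, 5 and 6 and at 8.95 to 14.5 CPM in the wild-type group.

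**Figure D5:**
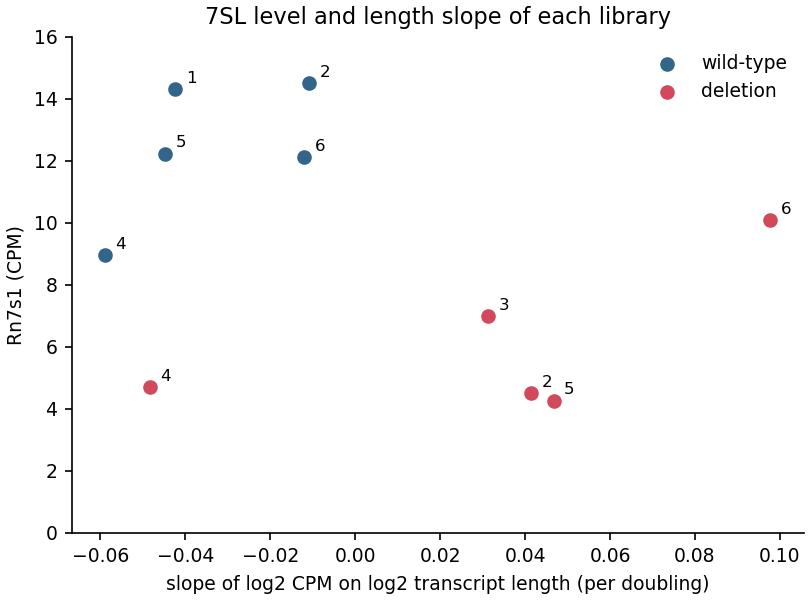
Rn7s1 level in CPM (y axis, from 0) against the library's slope of log2 CPM on log2 transcript length (x axis), 1 point per library, labelled with its number, wild-type in blue and deletion in red. Wild-type slopes lie from -0.0589 to -0.0109 with 8.95 to 14.5 CPM of Rn7s1, and deletion slopes from -0.0483 to 0.0978 with 4.26 to 10.1 CPM.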

How the data were processed

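The authors deposited whole-number counts per Entrez gene ID for 10 midbrain libraries, with no normalization. Total RNA was extracted with a Direct-zol kit, per the labels' protocols. HISAT2, featureCounts and mm39 are named in the submitters' processing notes; the sources used here do not give versions, annotation, strand setting or the handling of multi-mapping reads. Symbols came from RefSeq (GRCm38.p6) for 30648 of 30935 IDs, and 0 columns stayed without a sample. Transcript sequences, lengths and GC came from GENCODE M21 (GRCm38; longest protein-coding transcript, otherwise the longest), found for 98.7% of 15288 genes tested.

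The test was that of edgeR 4.0.16 under R 4.3.3 (filterByExpr, TMM, robust quasi-likelihood fit, group as the only term, two-sided, Benjamini-Hochberg over all genes, threshold 0.05). The standard error was the log2 fold change divided by the square root of F. Log2 CPM used a prior count of 2. Alternatives used DESeq2 1.42.0, limma 3.58.1 (voom), other scalings and filters, a replicate block, leaving out each library, and removal of each library's trend (spline, 4 degrees of freedom per variable). The gene test was tested on simulated data. No libraries of a group were near duplicates (chi-square over degrees of freedom at least 5.96), so all 10 were kept. P-values judge a group difference against the spread between these samples, whose litters and founder lines are not given.

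Members and lists were chosen with earlier results of these data known. Named were all members, Srp54b, Srp54c, the receptor genes, each small noncoding RNA past the filter, every gene past the threshold and the 3 smallest p of each other list, and the 5 genes most like 7SL. The 7SL sequence is not reported here.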

Additional observations from a re-analysis of the deposited data

Results flagged for a closer look

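In 80 groups of 5 libraries (40 named genes), 5 held 1 library set apart from the other 4 by more than 0.71 of the group's range, where chance gives about 1 in 20. Srp54b stood at 120 CPM in wild-type 2, below the others (138 to 143 CPM). Sec11c stood at 23.0 CPM in deletion 5, above 21.7 to 21.8 CPM in the others. Maf1 stood at 124 CPM in deletion 4, above 91.3 to 95.6 CPM. Ern1 stood at 15.4 CPM in wild-type 4, below 22.9 to 24.6 CPM. H2ac19 stood at 10.1 CPM in deletion 6, below 12.4 to 13.1 CPM. None of the 8 members was set apart in this way.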

How the results depend on the processing

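The log2 fold change of 7SL kept its sign and moved by less than the spread between replicates in all 20 alternatives run. Leaving out 1 library gave -1.28 to -0.92 for Rn7s1, -1.28 to -0.93 for Rn7s2 and -1.28 to -0.92 for their sum (-1.03 in all libraries). Removing the trend on length and GC content gave -0.74 for Rn7s1, the smallest size of the others. None of the 6 protein genes passed under any alternative. With the length trend removed, Srp14 turned to 0.055 and Srp19 to 0.14. With length and GC removed, Srp9 turned to 0.013, Srp14 to 0.054, Srp19 to 0.18 and Srp54b to 0.020. Leaving out 1 library gave -0.061 to 0.056 for Srp19, -0.052 to 0.031 for Srp72 and -0.058 to 0.030 for Srp54b. The number of genes called over the pathway lists was 0, but 1 by DESeq2 (Gtf3c1) and 0 to 3 without 1 library (Maf1, Tmem258 and Pdia6 without deletion 4). The number over all genes was 9. It was 15 with upper-quartile factors, 69 with no filter, 268 by DESeq2, 0 with the length trend removed, 24 with length and GC removed, and 0 to 357 without 1 library (357 without deletion 4, 88 without wild-type 2). With the replicate block it was 0, Rn7s1 had -1.08 and Srp54b turned to 0.043. Deviations of same-numbered libraries from their group means had correlations from -0.06 to 0.05. These values cannot decide whether such libraries shared a litter, which is not given. The cause of the changes in the number of genes called was not tested. At 73 to 275 counts, depth limits the precision of 7SL in single libraries.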
